A study of Drosophila melanogaster with 4 samples.

Results

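The Cpr genes encode cuticle proteins that carry the Rebers and Riddiford consensus, a chitin-binding motif, and are named after the chromosome band in which they lie. All genes of the deposited table whose symbol is Cpr followed by a digit were taken, except Cpr66D and Cpr72Ec, which encode proteins of the corneal lens and were kept aside. This left 68 of 14935 genes. RNA had been sequenced from 1 library each of larval, pupal and adult cone cells (CCs, also called Semper cells) and of adult photoreceptors (PRs), sorted from the eyes of 45 to 75 Drosophila melanogaster per sample. Larvae were wandering and late in their last instar, pupae were at 25 h after puparium formation and adults were 1 to 2 days old. Larval and pupal CCs were GFP-positive cells of sev-; prosPSG-GFP; TM2/TM6B animals, in which R7 photoreceptors are missing and GFP is driven by an enhancer of prospero. Adult CCs came from a different genotype, yw67;sp/CyO;TM2/TM6B. They were stained with antibodies against Fas3, which marks CCs and also the interommatidial bristle, and with 22C10, which marks photoreceptors and that bristle. Adult PRs were the RFP-positive, GFP-negative cells of prosPSG-GFP retinas, in which RFP comes from a 3xP3-RFP transgene. Each library pools animals and stands alone, so differences between libraries could not be checked on replicates and p-values are left out. Stage cannot be told apart from genotype and sorting between adult and younger CCs, nor cell type from genotype and sorting between adult CCs and PRs.

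Insect cuticle is built of chitin fibres and of proteins that bind them, and each stage of the life cycle lays down a cuticle of its own under the control of ecdysone pulses. Different Cpr genes are used at different stages and in different parts of the body, so that the family as a whole is known for tight control in time and place. In the eye, CCs and the primary pigment cells beside them secrete the corneal lens, a transparent cuticle that contains chitin, during the second part of pupal life. The sample of 25 h thus lies before the lens is laid down and the adult sample after it.

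The deposited values are log2 TMM-normalized read counts per gene, where TMM is a scaling that evens out differences in RNA composition. Values of 1 normalized count or less appear as 0 and are called listed at 0. A unit below means 1 normalized count on the linear scale. The libraries held between 1.48 and 3.25 M units and between 8997 and 12649 genes above 0. The steps between low values put 1 read at an estimated 0.597 to 1.66 units, so that 32 units stand for an estimated 19.3 reads in PRs and 37.5 to 53.6 reads in the CC libraries. Known markers went with the labels: in adult CCs and PRs the log2 levels were 1.39 and 17.37 for the rhodopsin gene ninaE and 13.62 and 9.32 for sv, the dPax2 gene. The CC fate gene pros was at 10.43, 9.72 and 4.28 in larval, pupal and adult CCs and at 5.05 in PRs, so it did not set adult CCs apart. In bulk samples such as these, fewer cells of a type and less RNA per cell cannot be told apart.

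Most Cpr genes were at 0 or near it in all libraries. Of the 68, 17 (25.0%) were listed at 0 in all 4 libraries, against 10.2% of all genes. Another 29 were above 0 somewhere but under 8 units everywhere, and 12 peaked between 8 and 32 units. The other 10 genes (14.7%) reached 32 units in at least 1 library, against 7462 of all 14935 genes. These 10 were Cpr51A, Cpr97Ea, Cpr72Ea, Cpr97Eb, Cpr76Bc, Cpr49Ac, Cpr49Ae, Cpr100A, Cpr92F and Cpr49Ag.

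The number of genes at 32 units or more was 2, 9 and 4 in larval, pupal and adult CCs and 4 in PRs. As shares of the 68 these are 2.94%, 13.2%, 5.88% and 5.88%, against 34.3%, 38.7%, 36.7% and 33.1% of all genes in the same order. The family was thus sparse relative to the table in every library, and at this floor least so in pupal CCs. The counts scale with gene length, and the Cpr genes are short. Their median coding length was 535.5 nucleotides, against 1176 over the 13003 genes of the table with a coding length. The part of length in these lower shares was not tested. With a floor of 64 units, pupal and adult CCs had 4 genes each. The 2 genes of larval CCs were Cpr51A and Cpr97Ea, and both were also at 32 units or more in pupal CCs. Pupal CCs held 9 of the 10 genes, all but Cpr49Ag. Adult CCs held Cpr49Ae, Cpr100A, Cpr92F and Cpr49Ag, and PRs held Cpr49Ae, Cpr49Ag, Cpr97Eb and Cpr51A. None of the 10 reached 32 units in all 4 libraries, 7 did so in more than 1 library and 3 in a single one. A few values lay close to that level: Cpr97Eb was at 31.3 units in adult CCs and Cpr92F at 31.5 units in PRs, while the gene with the highest peak below it, Cpr49Ah, reached 28.2 units.

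**Figure D1:**
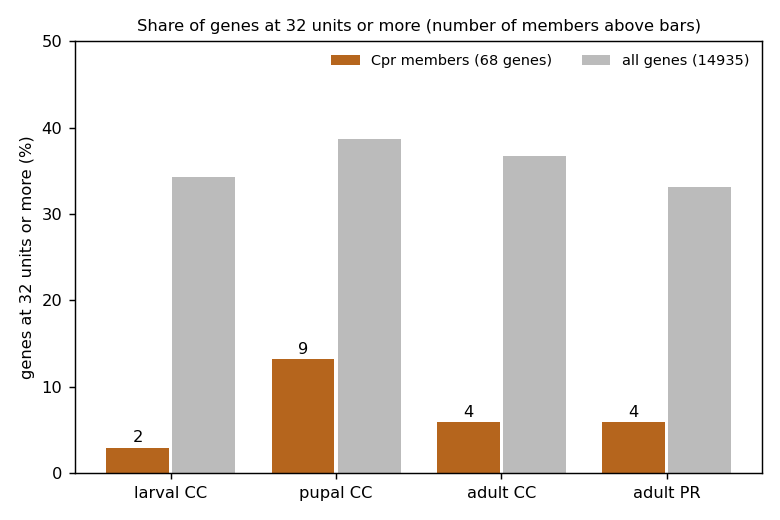
Percentage of genes at 32 units or more in each library, for the 68 Cpr genes (brown, left bars, with the number of genes above them) and for all 14935 genes (grey, right bars); each library is 1 sample, so there are no error bars. The Cpr bars are at 2.94%, 13.2%, 5.88% and 5.88%, all below the grey ones.

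With no floor, 14 of the 68 genes (20.6%) were above 0 at the larval, 45 (66.2%) at the pupal and 38 (55.9%) at the adult stage of CCs, and 18 (26.5%) in PRs. The corresponding shares of all genes were 62.6%, 84.7%, 77.4% and 60.2%, so pupal CCs were the library with most genes above 0 in the whole table as well. Summed over the 68 genes, the level was 156, 2141 and 20676 units in larval, pupal and adult CCs and 2243 units in PRs, which is 0.0106%, 0.117%, 0.635% and 0.0845% of each library's total. One gene made up most of the adult CC sum. Cpr49Ae took 92.8% of it, and without that gene the sum was 1492 units. In pupal CCs the leading gene, Cpr72Ea, took 47.0% of the sum.

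Grouped by the CC stage of the highest level, the 10 genes fell into a larval group of 1, a pupal group of 5 and an adult group of 4. The order of the pupal and adult groups depended on the floor: with 16 units there were 6 pupal and 8 adult peaks, and with 64 units 3 and 4. Of all genes at 32 units or more in a CC library, 21.9%, 31.2% and 46.9% had their peak in larval, pupal and adult CCs. When PRs were counted as a further place for the peak, 1 gene of the adult group, Cpr49Ag, moved to them. Among the 51 genes above 0 in any CC library, 2, 24 and 25 had their peak in larval, pupal and adult CCs, but most of these values lie under 8 units. As shares these are 3.92%, 47.1% and 49.0%, against 16.1%, 42.2% and 41.7% of all genes above 0 in a CC library.

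**Figure D2:**
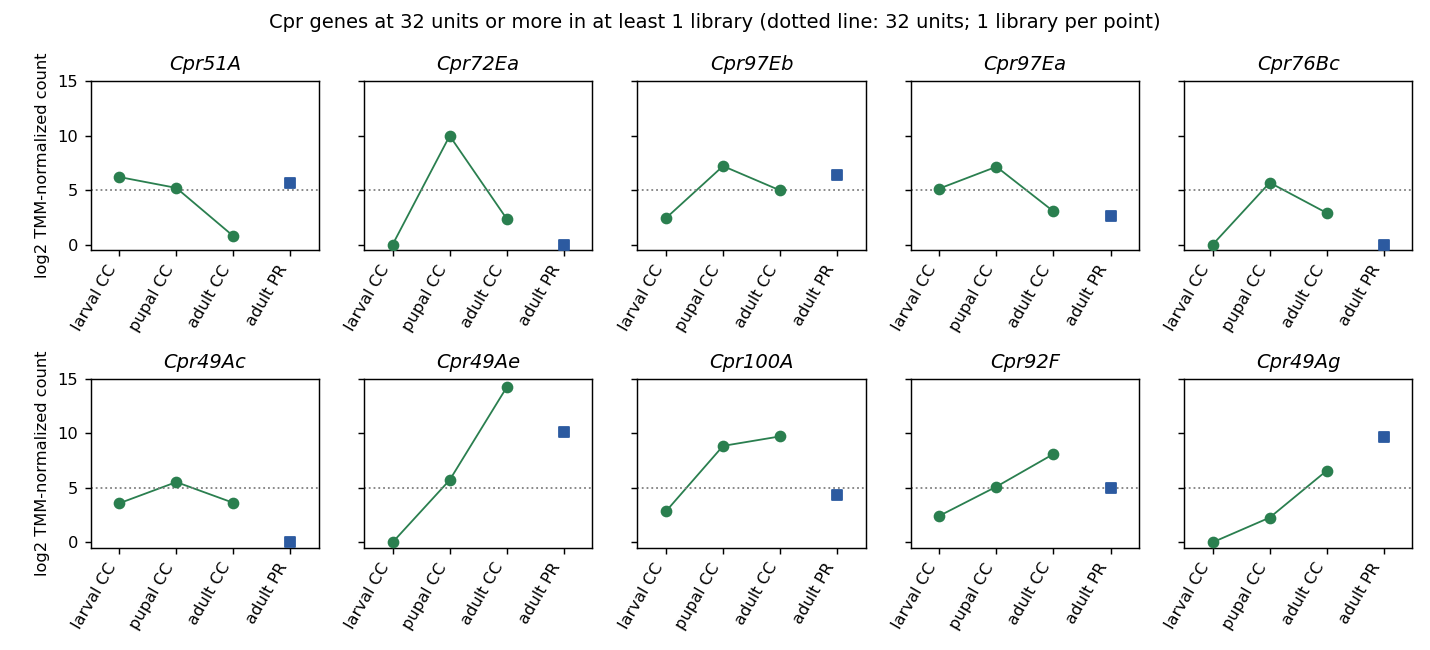
Log2 TMM-normalized count (y axis) of the 10 Cpr genes at 32 units or more in at least 1 library, in larval, pupal and adult CCs (green circles, joined by lines) and in adult PRs (blue squares); each point is 1 library, and the dotted line marks 32 units. Cpr51A is highest in larval CCs, Cpr72Ea, Cpr97Eb, Cpr97Ea, Cpr76Bc and Cpr49Ac in pupal CCs, Cpr49Ae, Cpr100A and Cpr92F in adult CCs, and Cpr49Ag in PRs.

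Cpr51A (FBgn0033942) was the only one of the 10 with its peak in larval CCs. Its log2 level was 6.20 at the larval stage, 5.20 at the pupal stage and 0.77 at the adult stage of CCs, and 5.69 in PRs. On the linear scale these are 73.4, 36.7, 1.71 and 51.5 units, and 1.71 units correspond to an estimated 2 reads. The adult CC library thus stood apart as low, while the other 3 lay within 36.7 to 73.4 units. On the log2 scale with 4 units added to each value, the difference was -0.93 for pupal minus larval CCs, -2.83 for adult minus pupal CCs and -3.28 for adult CCs minus PRs. The gene CG30197 overlaps Cpr51A on the other strand without sharing exon bases, and it was at 2.06, 2.15, 0 and 7.33 in the same order of libraries, also high in PRs.

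The strongest pupal gene was Cpr72Ea (FBgn0036617). Its log2 level was 9.97 at the pupal stage and 2.36 in adult CCs, while larval CCs and PRs had it listed at 0. This amounts to 1006 units in pupal CCs and 5.13 in adult CCs, an estimated 1587 and 6 reads. In pupal CCs it ranked 312th of 14935 genes by level, and it was the highest Cpr gene of that library. Its high level was found in the pupal library alone.

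Cpr97Ea (FBgn0039480) and Cpr97Eb (FBgn0039481) lie in the same band, and both were highest in pupal CCs. Cpr97Ea stood at 5.14, 7.14, 3.05 and 2.66 on the log2 scale in larval, pupal and adult CCs and in PRs. Cpr97Eb stood at 2.43, 7.20, 4.97 and 6.39 in the same order. They had nearly the same level in pupal CCs, 141 and 147 units, and differed in the other libraries, where Cpr97Ea was the higher in larval CCs and Cpr97Eb in adult CCs and in PRs. Between the adult libraries, Cpr97Ea differed by 0.25 and Cpr97Eb by -1.31 with 4 units added, and neither reached a 4-fold difference.

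Cpr76Bc (FBgn0036880) and Cpr49Ac (FBgn0033725) peaked in pupal CCs at lower levels. Cpr76Bc was at 5.68 on the log2 scale at the pupal stage and 2.90 in adult CCs, with larval CCs and PRs at 0, or 51.3 and 7.45 units. Cpr49Ac had log2 levels of 3.58, 5.52 and 3.62 in larval, pupal and adult CCs, with PRs at 0. With 46.0 units at its peak it had the lowest peak of the 10 genes, and its larval and adult CC levels were close, at 11.9 and 12.3 units.

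In adult CCs the outstanding gene was Cpr49Ae (FBgn0033728). It was listed at 0 at the larval stage, reached a log2 level of 5.71 at the pupal and 14.23 at the adult stage of CCs, and was at 10.16 in PRs. These are 52.4, 19185 and 1143 units, so adult CCs held by far the highest value of any Cpr gene in any library. It was the 10th highest of 14935 genes in adult CCs, the 336th in PRs and the 4672nd in pupal CCs. The corneal lens genes retinin, Crys and Cpr72Ec were likewise highest in adult CCs and next highest in PRs, while Cpr66D was highest in PRs. The log2 levels of retinin were 1.84, 0, 17.52 and 11.75 in larval, pupal and adult CCs and PRs. Those of Crys were 0, 2.15, 12.88 and 4.82 in the same order. Cpr72Ec had 1671 units in the adult CC library and 544 units in the PR library. For Cpr66D, PRs had 9.96 units against 2.56 units for adult CCs. Whether RNA of CCs contributed to the level of Cpr49Ae in PRs was not tested.

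Cpr100A (FBgn0039805) was high in both the pupal and the adult CC library. It stood at log2 levels of 2.84, 8.84 and 9.71 in larval, pupal and adult CCs and at 4.32 in PRs. The corresponding values were 7.16, 458, 840 and 19.9 units. Adult and pupal CCs differed by 0.87 with 4 units added, under the size of the rule, while the larval and PR values were far below both.

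Cpr92F (FBgn0038819) was higher at each later stage. Its log2 level was 2.43, 5.10 and 8.09 in the larval, pupal and adult stages of CCs, against 4.98 in PRs. On the linear scale it was at 5.37, 34.4 and 273 units in the CC stages and at 31.5 units in PRs, close to its pupal CC value.

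Cpr49Ag (FBgn0033730) differed from the other 9 genes in having its peak in PRs. Larval CCs had it listed at 0, and its log2 level was 2.27 at the pupal stage, 6.58 in adult CCs and 9.63 in PRs. In units these are 4.82, 95.5 and 795, with an estimated 112 reads in adult CCs and 479 in PRs. Cpr49Ae and Cpr49Ag lie in the same band and have the same coding length of 402 nucleotides, yet their order in the adult libraries was opposite, with 19185 and 1143 units for Cpr49Ae but 95.5 and 795 units for Cpr49Ag in adult CCs and PRs.

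The deposited counts still scale with gene length. Per kilobase of coding sequence, the genes at 32 units or more in adult CCs were at 47723 units for Cpr49Ae, 1162 for Cpr100A, 239 for Cpr92F and 238 for Cpr49Ag. In pupal CCs, units per coding kilobase were highest for Cpr72Ea at 984 and Cpr100A at 634, followed by Cpr97Eb at 209, Cpr49Ae at 130 and Cpr97Ea at 128. In PRs they were 2842 for Cpr49Ae, 1977 for Cpr49Ag, 119 for Cpr51A and 119 for Cpr97Eb, and in larval CCs 170 for Cpr51A and 32.1 for Cpr97Ea. The leading gene of each library was the same with and without division by length. Without replicates the order of neighbouring values is a description only. The 10 genes had a median coding length of 847.5 nucleotides (402 to 1272), against 508.5 for the other 58 and 405 for the 17 genes listed at 0 throughout, and a longer gene collects more reads at the same number of transcripts.

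Pupal and larval CCs differ in stage but share genotype and sorting, and the comparison asks which Cpr genes change while CCs mature. Counted as higher or lower was a gene whose log2(value + 4) differed by 2 or more, a 4-fold difference, and whose higher value was at least 32 units. By this rule 6 of the 68 genes (8.82%) rose in pupal over larval CCs and 0 fell, against 4.64% and 1.07% of all genes. Those that rose were Cpr72Ea, Cpr100A, Cpr97Eb, Cpr49Ae, Cpr76Bc and Cpr92F. For Cpr100A the difference was 5.37 and for Cpr97Eb 4.01. Cpr92F, with a difference of 2.03, was just past the rule and was no longer so when library totals were made equal (1.94) or medians were (1.87), or when 16 units were added (1.24). Cpr72Ea, Cpr49Ae and Cpr76Bc were listed at 0 in larval CCs, so no fold is given for them. Cpr97Ea, with a difference of 1.89, and Cpr49Ac, with 1.65, did not pass the rule.

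Of the 15 Cpr genes at 8 units or more in either of these libraries, 14 had the higher value in pupal CCs and 1, Cpr51A, in larval CCs. Their median difference was 2.03, against 0.38 over the 9297 genes of the table that met the same condition. A gene enters this count and median through the library in which it is high. All 15 were at 8 units or more in pupal CCs but only 3 in larval CCs, so the condition itself set the direction of the others. In larval CCs 8 of the 15 were listed at 0. The median moved with the constant added, to 3.70 with 1 unit and 1.15 with 16 units.

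Markers of other cell types also differed between these libraries. The summed level of 5 hemocyte markers was 374 units in pupal and 8.36 in larval CCs, with NimC1, srp and eater at 0 in larval CCs. The 5 muscle markers summed to 115 and 0 units, and all 5 were listed at 0 in larval CCs. The 4 bristle markers summed to 1211 and 514 units, with the sense organ matrix gene nompA at log2 levels of 6.84 and 1.88. The 5 markers of antenna and head were at 133 and 80.7 units, with Dll at 105 and 47.8 units but ss, also a bristle marker, at 17.1 and 32.9 units. The 5 tracheal genes were at 620 and 2591 units, nearly all from Gasp, verm and serp, while the tracheal fate gene trh was at 5.25 and 2.78 units. The 5 pigment cell markers summed to 715 and 891 units. Among them rst was at 598 and 823 units and w at 53.4 and 60.9 units, while cn, at 44.5 and 4.78 units, rose by the rule. The part of such cells in the Cpr values was not tested.

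Adult and pupal CCs differ in stage, genotype and sorting, and the comparison sets mature CCs beside those that have not yet made the lens. By the same rule 3 Cpr genes rose and 5 fell in adult against pupal CCs, or 4.41% and 7.35% of the 68, with 6.47% and 6.11% of all genes as background. These shares are near the background. Cpr49Ae rose by 8.41 on the log2 scale with 4 units added, Cpr49Ag by 3.50 and Cpr92F by 2.85. The 5 that fell were Cpr72Ea (-6.79), Cpr97Ea (-3.56), Cpr51A (-2.83), Cpr76Bc (-2.27) and Cpr97Eb (-2.10). With 16 units added, Cpr51A, Cpr76Bc and Cpr97Eb no longer passed the rule (-1.57, -1.52 and -1.79), and with equal library totals Cpr49Ac also fell (-2.29). Over the 21 Cpr genes at 8 units or more in either library the median difference was 0.71, against -0.05 over all such genes. This Cpr median was -0.17 with equal library totals. Of the 21, 12 were higher and 9 lower in adult CCs. Here too a gene enters through the library in which it is high, with 15 Cpr genes at 8 units or more in pupal and 16 in adult CCs. Cpr100A, at 840 and 458 units, was high in both libraries and did not pass the rule, and its difference of 0.87 was 0.04 with equal library totals. Markers of other cells moved in both directions. The 5 pigment cell markers summed to 94922 units in adult and 715 in pupal CCs, of which Pdh made up 94871 and 15.8 units, while rst was at 9.40 and 598 units and cn at 5.78 and 44.5 units, both lower in adult CCs by the rule. The 5 hemocyte markers summed to 229 and 374 units, of which Pxn made up 7.69 and 224 units, while Hml was at 151 and 103 units and NimC1 at 35.0 and 12.7 units. The 4 bristle markers summed to 2592 and 1211 units, of which sn made up 2460 and 1008 units. Among them nompA was at 21.0 and 115 units, lower in adult CCs by the rule. The 4 fat body markers stayed between 0 and 31.5 units in all libraries. The part of other cells in these differences was not tested either.

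Adult CCs were set beside PRs of the same age but of another genotype and sorting, and the comparison asks which Cpr genes set the support cells of the eye apart from its neurons. By the rule 3 genes, Cpr49Ae, Cpr100A and Cpr92F, were higher in adult CCs, while 2, Cpr49Ag and Cpr51A, were lower. These are 4.41% and 2.94% of the 68, against 9.31% and 4.91% of all genes. With 4 units added, the log2 differences were 5.14 for Cpr100A, 4.06 for Cpr49Ae, 2.96 for Cpr92F, -3.00 for Cpr49Ag and -3.28 for Cpr51A. Cpr51A fell short of the rule with 16 units added (-1.93). The median difference over the 18 Cpr genes at 8 units or more in either library was 0.52, against 0.67 over all such genes, and it was -0.10 with equal medians. Cpr76Bd was at 22.5 units in adult CCs and listed at 0 in PRs, and Cpr65Eb was at 12.8 units and 0. Both are under 32 units, and an estimated 1.66 units per read makes PRs the library in which a low gene is most easily missed. Between adult CCs and PRs, the 5 CC markers summed to 33706 and 1454 units and the 7 PR markers to 1563 and 321747 units. The hemocyte markers summed to 229 and 18.0 units, though Pxn was at 7.69 and 11.3 units. The 5 muscle markers summed to 147 and 9.93 units. Among them Mhc was at 104 and 3.28 units, higher in adult CCs by the rule, and Act88F at 1.92 and 6.65 units. Of the PR markers, norpA made up 1466 and 42540 units, while ninaE was at 2.61 and 169335 units. In larval and pupal CCs norpA was at 426 and 484 units. Of the pigment cell markers in adult CCs and PRs, Pdh was at 94871 and 11406 units, higher in adult CCs by the rule. The gene w was at 29.3 and 28.0 units and rst at 9.40 and 121 units, the last lower in adult CCs by the rule. The 4 bristle markers summed to 2592 and 772 units, of which sn made up 2460 and 713 units. The part of other cells in the Cpr values of these 2 libraries was not tested.

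**Figure D3:**
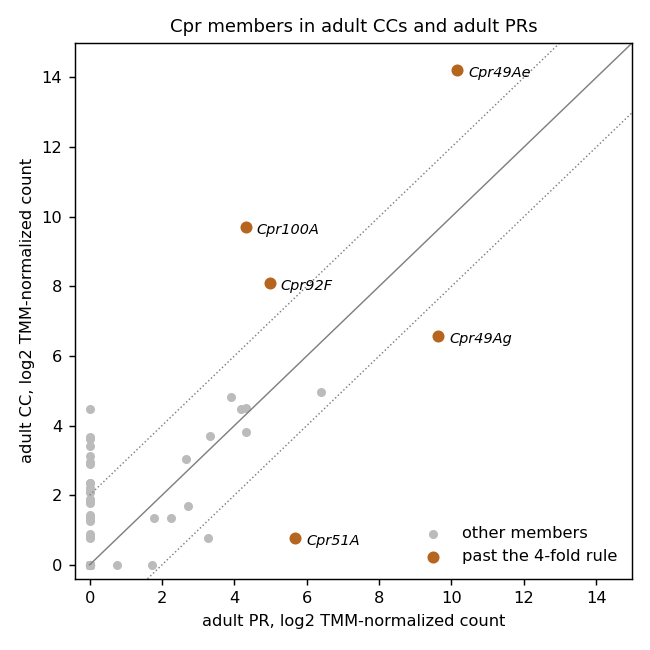
Log2 TMM-normalized count of the 68 Cpr genes in adult CCs (y axis) and adult PRs (x axis), 1 library each; brown points passed the 4-fold rule and grey points did not, the solid line marks equal levels and the dotted lines a 4-fold difference without added units. Cpr49Ae, Cpr100A and Cpr92F lie above the lines, Cpr49Ag and Cpr51A below, and grey points on the left edge are genes listed at 0 in PRs.

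The corneal lens genes that were kept aside from the family had these levels in the same libraries. Cpr72Ec had log2 levels of 0, 3.65 and 10.71 in larval, pupal and adult CCs and 9.09 in PRs, and Cpr66D was at 0.84, 0, 1.36 and 3.32 in larval, pupal and adult CCs and in PRs. With 1671 units Cpr72Ec was above every Cpr gene of the set in adult CCs except Cpr49Ae. It shares its band with Cpr72Ea, which had 1006 units in pupal CCs where Cpr72Ec had 12.5 units, and 5.13 units in adult CCs.

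Many Cpr genes share a band with others, and genes of 1 band could differ in their course. Of the 68 genes, 48 lie in 12 bands with 2 or more of them, and 7 of these 48 reached 32 units. The 20 genes that are alone in their band held the other 3. Band 49A, on chromosome arm 2R, had 8 genes, of which 3 were listed at 0 in all libraries and 3 reached 32 units, each with another peak: Cpr49Ac at the pupal stage, Cpr49Ae in adult CCs and Cpr49Ag in PRs. Summed over the band, the level was 11.9, 124 and 19322 units in larval, pupal and adult CCs and 1952 units in PRs. Band 97E, with 2 genes, had its highest sum in pupal CCs (288 units). In band 65A on arm 3L, 4 of 7 genes were listed at 0 throughout, and the highest was Cpr65Av at 10.6 units in adult CCs. Band 47E had 7 genes, none above 8 units. By chromosome arm, 4 of 5 genes on 3R, 4 of 21 on 2R, 2 of 33 on 3L, 0 of 5 on 2L and 0 of 4 on X reached 32 units. The count on 3R rests on 5 genes, 2 of them in band 97E. Shares of all genes by arm were not computed, so these counts are a description only.

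**Figure D4:**
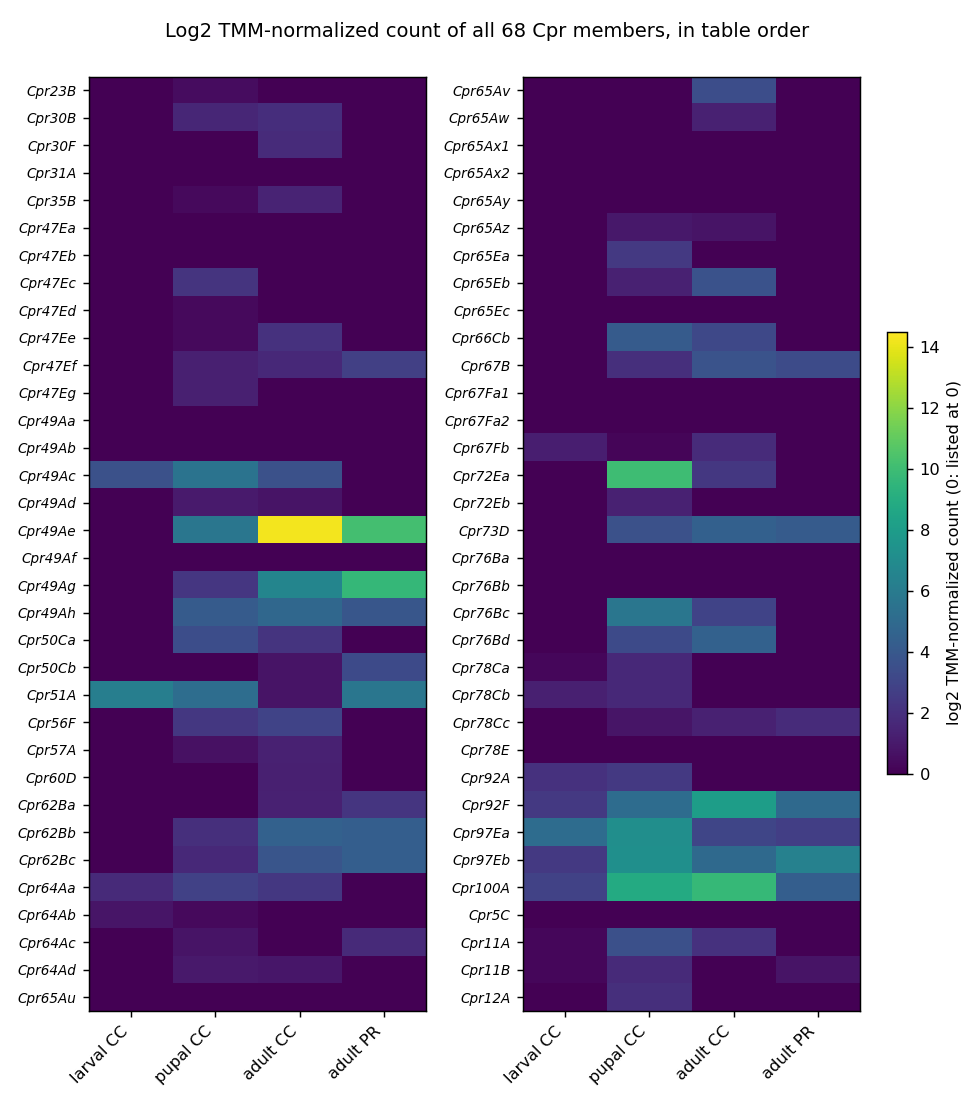
Log2 TMM-normalized count of all 68 Cpr genes (rows, in the order of the deposited table) in larval, pupal and adult CCs and adult PRs (columns, 1 library each), with dark purple for values listed at 0. Most rows are dark, 17 of them in all columns, and Cpr49Ae in adult CCs is the brightest cell at 14.23.

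Among the 12 genes that peaked between 8 and 32 units, the highest were Cpr49Ah with 18.2 units at the pupal stage, 28.2 in adult CCs and 14.9 in PRs, Cpr62Bb with 3.80, 22.6 and 20.2 units, and Cpr76Bd with 9.51, 22.5 and 0 units. All 3 were listed at 0 in larval CCs. Some values may hold reads of another gene, since the counting is not stated to use strand: 13 of the 68 genes overlap another annotated gene. Cpr57A shares 1488 exon bases with the odorant-binding protein gene Obp57d and was given the same values as that gene, 0.66 at the pupal stage and 1.36 in adult CCs on the log2 scale, so the source of these reads cannot be told apart. Cpr73D shares 294 exon bases with Ogdh, which was at log2 levels of 7.90 to 10.09. None of the 10 genes at 32 units or more shares exon bases with another gene. Cpr65Ax1 and Cpr65Ax2, with the same coding length of 306 nucleotides, and Cpr67Fa1 and Cpr67Fa2, with 402, are pairs of named copies. They are uncertain, because reads that fit both copies could have been dropped, and all 4 were listed at 0.

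The other families of cuticle genes gave a frame for these levels. Of 26 further genes of the same protein class with older names (Lcp, Ccp84, Pcp, Acp65Aa, Edg), 9 were listed at 0 throughout and 1 reached 32 units: Ccp84Ag, with log2 levels of 8.11 in adult CCs, 2.32 in PRs and 0 at the younger stages. Its nearest in level, the pupal cuticle gene Pcp, peaked at 4.52 in PRs. Ccp84Ag was higher in adult CCs than in pupal CCs and in PRs by the rule, and no other gene of that list passed it. Of 25 Tweedle genes, which encode another family of chitin-binding cuticle proteins, 9 were listed at 0 throughout, and TwdlE alone reached 32 units, at 6.88, 4.91, 8.49 and 0 in larval, pupal and adult CCs and in PRs. Both lists, like the Cpr genes, held a few expressed genes among many at or near 0.

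Genes that make and shape chitin were expressed more widely. Of 12 such genes 11 reached 32 units in a library, as did 7462 of all 14935 genes. By the rule 6 were higher and 0 lower in adult CCs relative to PRs, 2 rose and 3 fell in adult against pupal CCs, and 1 rose and 1 fell in pupal against larval CCs. The shares of all genes that these counts and those of the lists below stand beside are 9.31% higher and 4.91% lower in adult CCs relative to PRs, 6.47% and 6.11% in adult against pupal CCs, and 4.64% and 1.07% in pupal against larval CCs. The chitin synthase gene kkv was at log2 levels of 8.74, 7.14, 7.01 and 0.73 in larval, pupal and adult CCs and in PRs. The chitinase gene Cht5 had a pupal peak like that of Cpr72Ea, at 4.39, 13.09, 3.64 and 3.73. Of 9 obstructor genes, which encode secreted chitin-binding proteins, 4 reached 32 units. Gasp, one of these and well known from trachea, was at 10.26, 8.05, 12.39 and 6.31. By the rule 4 of the 9 were higher in adult CCs relative to PRs, 2 rose in adult against pupal CCs and 1, Gasp, fell in pupal against larval CCs.

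Of the genes for cuticle hardening and pigment, 10 of 11 listed were measured. Of these 10, 4 rose and 0 fell in adult against pupal CCs, 1 rose and 0 fell in pupal against larval CCs, and 2 were higher and 1 lower in adult CCs relative to PRs. The dopa decarboxylase gene Ddc was at 3.60, 3.04, 8.83 and 6.38 in larval, pupal and adult CCs and in PRs, and the tyrosine hydroxylase gene ple at 3.50, 5.22, 7.62 and 6.16. Enzymes of this list also make dopamine and pteridines, and t, at 5.55 in adult CCs and 10.84 in PRs and lower by the rule, acts in the histamine cycle of PRs.

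Among 12 genes of the ecdysone response, which times cuticle formation, 1 rose and 3 fell in adult against pupal CCs, 0 rose and 1 fell in pupal against larval CCs, and 1 was higher and 1 lower in adult CCs relative to PRs. The zinc finger gene br, which specifies the pupal stage, was at log2 levels of 12.80, 9.68, 7.05 and 7.69 in larval, pupal and adult CCs and in PRs. The nuclear receptor gene ftz-f1, whose product is known to activate cuticle genes in the prepupa, was at 6.82, 5.69, 9.31 and 8.59 in the same order, lowest in pupal CCs. Of 9 genes of the zona pellucida domain family, which encode proteins of the apical matrix under the cuticle, 2 rose and 3 fell in adult against pupal CCs, 1 rose and 0 fell in pupal against larval CCs, and 3 were higher and 0 lower in adult CCs relative to PRs. Their members pio and pot, with log2 levels of 12.47 and 10.37 in adult CCs, against 9.40 and 7.20 in pupal CCs, were those that rose. Those that fell were neo, mey and nyo, with log2 levels of 4.36, 4.43 and 2.36 in adult CCs, against 8.83, 7.34 and 6.34 in pupal CCs. The gene tyn, at 8.58 and 10.15, did not pass the rule. Summed over the 9 genes, the level was 7468 units in adult and 2679 in pupal CCs.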

How the data were processed

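Reads of 4 libraries had been aligned to dm3 (TopHat2 2.0 and Bowtie 1.0 in the submitters' processing notes) and counted per gene. The authors scaled the counts by TMM with reference to whole-animal data and deposited their log2 values, which were turned to linear units. The table had 14959 entries, and 24 that repeated a gene at 0 were dropped. The whole-animal, nervous system and digestive system data and a further library of adult CCs are not used here. No whole reads were recovered: between 38.4% and 65.0% of values under 30 units lay within 0.02 units of a multiple of the estimated size of 1 read, so no count test was run and depth, an estimated 1.60 to 3.81 M reads on genes, is approximate.

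Each condition has 1 library, so differences were called by the fixed rule of size given in the text, over all genes. How often genes pass the rule between replicate libraries was not tested. Genes named are all Cpr genes at 32 units or more and the leading genes of other lists; the GO annotations deposited with the values gave 1 more list after the values were seen. Others were singled out by value. Members and lists were chosen with earlier results of these data known. Coding lengths and overlaps came from Ensembl release 115 (BDGP 6), another build than dm3, so no coordinates are given. All 68 genes matched by FlyBase ID. Alternatives were added constants of 1 and 16 units, other level floors or none, an 8-fold rule, and scaling to equal totals or medians. Python 3.11.15, numpy 2.4.6, pandas 2.3.3 and matplotlib 3.10.9 were used.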

Additional observations from a re-analysis of the deposited data

How the results depend on the processing

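The counts of Cpr genes at the floor were the same within 1.5 times under both other scalings. With a floor of 64 units they were 1 in larval and 4 in pupal CCs, and with a floor of 16 units 9 in adult CCs and 9 in PRs. Among peaks, a floor of 64 units gave 3 pupal ones and a floor of 16 units 8 adult ones, while no filter on low values gave 2 larval, 24 pupal and 25 adult ones. With the highest floor tried, 8 times the one used, 2 genes rose in pupal over larval CCs, 1 fell in adult against pupal CCs and 1 was lower in adult CCs relative to PRs. With 16 units added 2 fell in adult against pupal CCs and 1 was lower in adult CCs relative to PRs, and an 8-fold rule also left 2 that fell in adult against pupal CCs. With no filter on low values 6 were higher in adult CCs relative to PRs. The median difference between pupal and larval CCs was 3.70 with 1 unit added and 1.15 with 16 units. That between adult and pupal CCs turned from 0.71 to -0.17 with equal library totals, and that between adult CCs and PRs, 0.52 over 18 genes against 0.67 over all genes, turned to -0.10 with equal medians. These scalings shift the differences of all genes, by -0.31, -0.83 and -0.29 with equal totals and by -0.23, -0.14 and -0.51 with equal medians in the 3 comparisons. Of 120 alternative values of the 10 named genes, 0 changed direction after passing the rule. Setting values listed as 0 to 1 unit, an alternative chosen after seeing the data, changed no median, of the Cpr genes or of all genes, and so says nothing of their stability. With 1 library per condition, depth and the floor limit what low genes can show. No paired analysis was possible because each group has 1 library and the labels give no replicate numbers.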

Other observations

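The annotations deposited with the values give all 68 Cpr genes the term for a structural constituent of chitin-based cuticle, 17 of them the larval, 3 the pupal and 2 the adult term. Outside the family 73 genes carry one of these terms or the general cuticle term, a list formed after the values were seen. Some of them, such as Ccp84Ag, TwdlE and Crys, also belong to the lists above. Of the 73, 19 were listed at 0 throughout, against 10.2% of all genes. In at least 1 library 10 reached 32 units, against 7462 of all 14935 genes. At that level were 2, 4 and 7 in larval, pupal and adult CCs and 1 in PRs. The shares of all genes were 34.3%, 38.7%, 36.7% and 33.1% in the same order.

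The gene zye, of the zona pellucida domain family, had log2 levels of 0.84, 9.72 and 5.36 in larval, pupal and adult CCs, with PRs at 0, a pupal peak like that of Cpr72Ea. CG1136 had a log2 level of 2.69 at the pupal stage and 9.66 in adult CCs, with larval CCs and PRs at 0, the order seen for Cpr49Ae in the CC libraries.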
